A study of Homo sapiens with 18 samples.

Results

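The comparison is between leader cells after 1 passage through nerve and the line they came from, with 3 RNA sequencing libraries of each among the 18 of the series. Both are MiaPaCa-2, an established human line from a pancreatic carcinoma, labelled wild type. Leaders are cells that had been injected once into the sciatic nerve and recovered (labelled as an in vivo first passage). The parental cells were never injected and are labelled as grown in vitro. Libraries were placed in the groups by these labels alone. Passage 1 laggers, the other cells recovered in that passage, and passage 4 leaders, which went through the cycle of injection, harvest and growth in culture 4 times, are used below with 3 libraries each, only to see where passage 1 leaders differ. The sources used here do not give how leaders were told from laggers, the host animals, the number of cells recovered or whether RNA was taken before or after growth in culture. Since the labels do not tie replicates to separate animals or cultures, a p-value here covers only the spread among these libraries, and that spread may be technical.

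Pancreatic cancer is known for growing along nerves, a process called perineural invasion. Tumour cells that do so meet axons, Schwann cells and a laminin-rich sheath, and neurotrophic factors, guidance cues, integrins and proteases have all been tied to that growth. Cells taken out of a tissue or a dish also respond within minutes by transcribing immediate early genes, and then heat shock genes, so both programmes were read beside the nerve-related ones. MiaPaCa-2 is a poorly differentiated line that has lost CDKN2A, the gene of the cell cycle inhibitor p16, and carries few epithelial adhesion proteins. In all 6 libraries CDKN2A and the epithelial adhesion gene EPCAM had 0 counts. The intermediate filament gene VIM averaged 2094 ± 372 CPM in leaders and 1826 ± 35.4 CPM in parental cells. Other epithelial adhesion genes, CDH1 among them, rose in leaders and are given below.

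Levels are in CPM, counts scaled to one common library size, given per library (replicates 1, 2 and 3 in turn) or as mean ± SD over 3 libraries. A log2 fold is the log2 fold change of leaders over parental cells, with its standard error (SE), from the quasi-likelihood test of edgeR fitted to all 18 libraries. A gene was called at an adjusted p under 0.05 (Benjamini-Hochberg over all 16187 genes tested). Rose and fell are used of called genes only. Because transcript length and GC content moved with the direction of change, the fit was repeated with offsets for both, chosen after seeing the data. Of 205 genes named, 78 moved by more than 1.5 times in it, and where such a fold is printed, its value with the offsets stands in the same paragraph. In libraries made from bulk RNA, fewer cells of one type and less RNA per cell cannot be told apart.

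The libraries themselves differed between the groups. Genes held 21474819 to 26110847 counts in leader libraries and 29005147 to 39373248 in parental ones. Mitochondrially encoded genes took 5.60% to 8.58% of gene counts in leaders, against 0.472% to 0.873% in parental cells. Reads aligned to more than 1 place took 22.9% to 27.4% and 13.9% to 16.4%. The 10 most abundant genes of each library took 12.0% to 15.4% and 6.74% to 7.95%. On none of these did the groups overlap. Leader replicate 2 and parental replicate 3 were the least like their own replicates (chi-square per degree of freedom 91.1 to 112 and 142 to 238, against 21.2 and 51.7 for the remaining pair of each group), and results that rest on them are given without them. The part of these library measures in the results below was not tested.

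**Figure D1:**
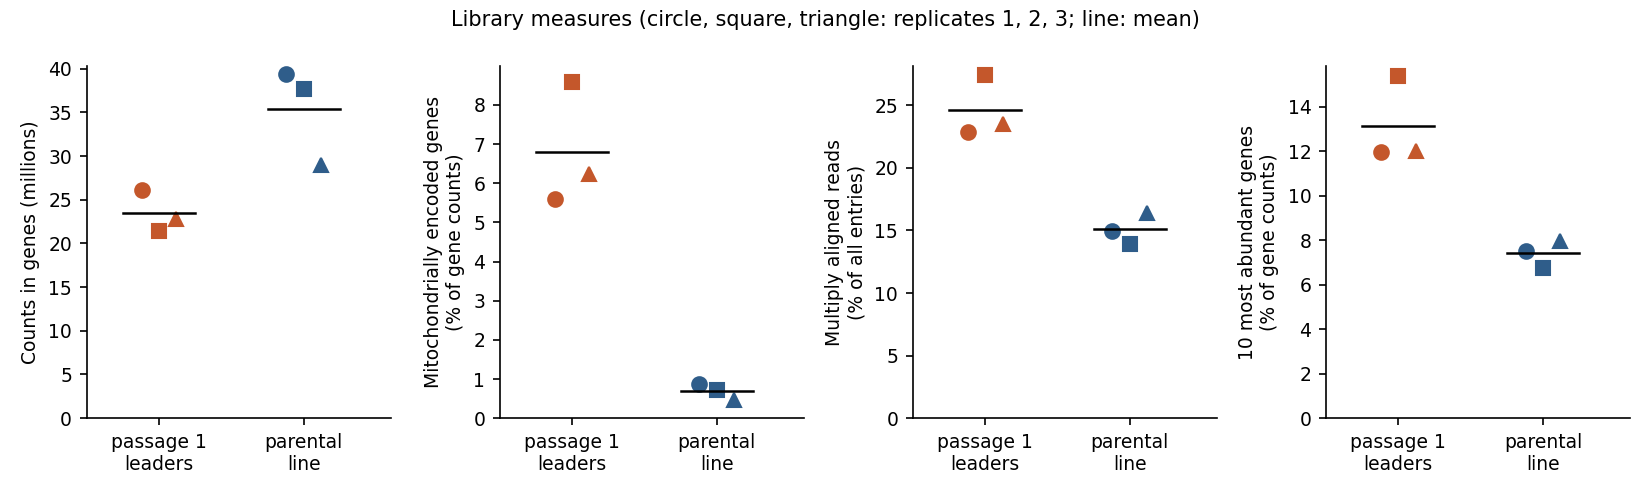
Counts in genes and 3 shares in percent (mitochondrially encoded genes, multiply aligned reads, the 10 most abundant genes) for each leader and parental library, with symbols for replicates and a line at the group mean. All 3 leader libraries lie below the parental ones in counts and above them in the 3 shares, and replicate 2 is the highest leader library in each share.

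Nearly as many genes were called higher in leaders as lower. Of 16187 genes tested, 7394 were called (45.7%), 3762 higher in leaders (23.2%) and 3632 lower (22.4%), and 7114 of the called genes had no overlap between leader and parental libraries, which held for 57.2% of all genes tested. Called genes that were higher in leaders differed by more (median log2 fold change 1.91) than those that were lower (-1.20). A difference of at least 3 on the log2 scale was reached by 1127 higher and 237 lower genes. Among the called genes 317 higher ones had 0 counts in all 3 parental libraries, and 19 lower ones had 0 counts in all 3 leader libraries. The fitted folds of such genes depend on the prior count of the fit. The medians and the counts at a difference of 3 include them, and their part in the larger upward differences was not tested. Without leader replicate 2 and parental replicate 3, an alternative chosen after seeing the data, 5032 genes were called, 2714 higher and 2318 lower. Counts of called list members below are to be read beside the shares of all genes tested, 23.2% higher and 22.4% lower.

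**Figure D2:**
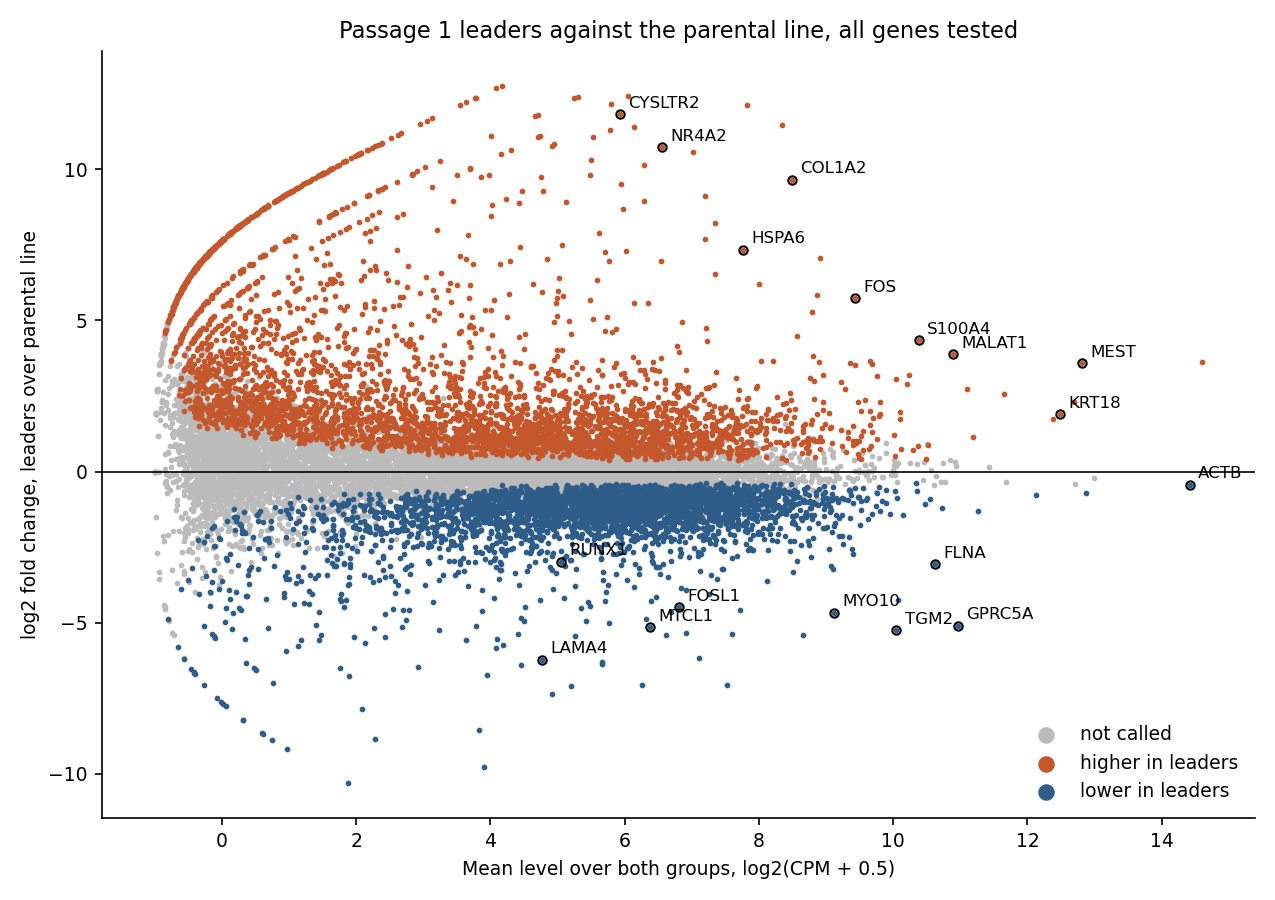
Log2 fold change of leaders over parental cells against the mean level over both groups as log2(CPM + 0.5), 1 point per gene tested, with called genes in colour. The largest fitted changes are upward, and the curved edge at the upper left holds genes with 0 parental counts, whose fitted fold depends on the prior count and is no bound.

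With mitochondrially encoded, ribosomal protein and clone-named genes left out, the 8 largest gains in CPM were those of MEST, TMSB4X, KRT18, KRT8, MALAT1, S100A4, HSPB1 and B2M. MEST, an imprinted gene of the alpha/beta hydrolase family, had 14338, 13066 and 12456 CPM in leaders, against 1129.6, 1238 and 976 CPM in parental cells (log2 fold 3.58 ± 0.28 SE, edgeR adjusted p = 3.39e-07). Each leader library stood more than 10 times as high as any parental one, and the libraries within a group lay close together. Reads of MEST may be shared with its processed pseudogenes, and MESTP3 also rose (8.29 ± 0.946 CPM and 0.614 ± 0.187 CPM; log2 fold 3.73, or 2.89 with the offsets). MALAT1, a nuclear long non-coding RNA, had 2472, 4636 and 3517 CPM in leaders and 203, 346 and 164 CPM in parental cells (log2 fold 3.90 ± 0.55 SE, edgeR adjusted p = 5.07e-05).

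By the same rule, the 8 largest losses were those of ACTB, GPRC5A, ACTG1, FLNA, ENO1, PKM, TGM2 and COTL1, among them actins, actin-binding proteins and glycolytic enzymes. TGM2, a transglutaminase that cross-links matrix proteins, had 53.8, 53.5 and 54.6 CPM in leaders, against 1728, 1610.2 and 2840.3 CPM in parental cells (log2 fold -5.25 ± 0.45 SE, edgeR adjusted p = 6.89e-07). The leader libraries were almost equal, and all lay far below the parental ones. GPRC5A, a retinoic acid-induced orphan receptor, fell to 113 ± 86.4 CPM in leaders, against 3872 ± 229.6 CPM in parental cells (-5.10 on the log2 scale; -5.87 without leader replicate 2). TGM2 and GPRC5A stood at -4.38 and -4.48 with the offsets. ACTB moved least (-0.43), and its call was lost without parental replicate 3 (-0.31), without leader replicate 3 (-0.37) and in other settings, 5 of 14 in all.

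The 6 smallest adjusted p-values among genes higher in leaders were those of NR4A2, CYSLTR2, FOS, PPIC, CHRNA6 and COL1A2. CYSLTR2, a receptor for cysteinyl leukotrienes, had 123, 136 and 102 CPM in leaders, with 3 counts over all parental libraries, a ratio of 4246 (95% interval for counting error 1452 to 20594). CHRNA6, a subunit of nicotinic acetylcholine receptors, had 75.3, 182 and 72 CPM in leaders, with 2 parental counts, a ratio of 5545 (95% interval for counting error 1534 to 45796). Both receptors were near 0 in every parental library. The 6 smallest among lower genes were those of ASAP1, SEC14L1, RUNX1, TAOK3, MTCL1 and RRP1B, of which RUNX1, a transcription factor of blood and epithelial development, had 7.8, 6.98 and 7.27 CPM in leaders, against 46.8, 56.5 and 70.5 CPM in parental cells (log2 fold -2.98 ± 0.22 SE, edgeR adjusted p = 1.56e-07).

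Immediate early transcription factors are proteins whose genes are switched on within minutes of a growth signal, depolarisation or stress, through factors that wait on their promoters (CREB at cyclic AMP response elements, SRF at CArG boxes). Of 26 members tested, 17 rose and 4 fell in leaders, with a median log2 fold change of 1.79, against 0.07 over all genes tested. The promoters of 3 that rose are shown because their elements are among the best known of this class, with positions in GRCh38.p14, all on the plus strand and all holding the 250 bases before the transcription start, from RefSeq. Capitals mark TGACG, the core of the cyclic AMP response element, on either strand, and in EGR1 also CArG boxes.
FOS: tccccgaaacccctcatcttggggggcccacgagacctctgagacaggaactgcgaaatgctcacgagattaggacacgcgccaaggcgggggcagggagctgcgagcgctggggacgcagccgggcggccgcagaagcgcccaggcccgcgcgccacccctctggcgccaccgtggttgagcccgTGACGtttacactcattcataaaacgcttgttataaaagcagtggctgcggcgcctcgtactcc
FOSB: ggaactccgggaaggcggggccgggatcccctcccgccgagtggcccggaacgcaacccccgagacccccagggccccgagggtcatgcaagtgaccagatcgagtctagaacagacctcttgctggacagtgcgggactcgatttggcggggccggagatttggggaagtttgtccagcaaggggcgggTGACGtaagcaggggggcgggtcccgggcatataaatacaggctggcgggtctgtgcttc
EGR1: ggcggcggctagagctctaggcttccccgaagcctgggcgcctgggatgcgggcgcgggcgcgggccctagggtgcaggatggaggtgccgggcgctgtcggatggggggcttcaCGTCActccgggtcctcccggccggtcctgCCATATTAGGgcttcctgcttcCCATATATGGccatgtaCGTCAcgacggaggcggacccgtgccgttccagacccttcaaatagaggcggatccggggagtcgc
They lie at chr14:75278578-75278827, chr19:45467746-45467995 and chr5:138465229-138465478. FOS and FOSB each held 1 TGACG and no CArG box in this window, and EGR1 held 2 of each. Over all 35116 promoters of this length, 21.2% held TGACG on either strand, 1.65% the full element TGACGTCA, which contains it, and 1.16% a CArG box. Of 20 list genes with a promoter entry, 15 held TGACG in at least 1 of their promoters, and of the 14 among them that rose, 10 did. The full element was held by 3 of the 20 and 1 of the 14, and a CArG box by 3 and 2. The shares over all promoters are per promoter, while these counts are per gene, with 32 promoters for the 20 genes. A match is a description of these letters only, and genes with several promoters had more chances of one.

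The AP-1 subunit gene FOS had 1405, 1041 and 1605 CPM in leaders, against 21.3, 19.2 and 35.6 CPM in parental cells (log2 fold 5.73 ± 0.32 SE, edgeR adjusted p = 1.71e-08). FOSB, its close relative, had 273, 427 and 264 CPM and 4.25, 1.74 and 4.36 CPM (log2 fold 6.54 ± 0.44 SE, edgeR adjusted p = 8.27e-08). The nuclear receptor gene NR4A2 had 159, 214 and 189 CPM and 0.0249, 0.128 and 0.185 CPM, from 11 counts in all parental libraries (10.73 on the log2 scale). All 3 genes were high in every leader library and the groups lay far apart. NR4A1, another nuclear receptor of this family, rose by 3.96. The stress-induced factor ATF3 averaged 103 ± 49.6 CPM in leaders and 2.94 ± 0.474 CPM in parental cells. EGR1, a zinc finger factor of the growth response, had 409, 595 and 451 CPM in leaders and 115, 98.5 and 188 CPM in parental cells (log2 fold 1.86 ± 0.36 SE, edgeR adjusted p = 0.000694), and EGR4 rose by 3.80. The AP-1 subunits JUN and JUNB rose by 1.99 and 1.58. FOSB, NR4A1, EGR4 and JUN stood at 7.36, 4.73, 4.57 and 2.73 with the offsets.

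The AP-1 family did not move as a whole. FOSL1, the subunit that sustained ERK signalling maintains, had 7.43, 17.4 and 4.03 CPM in leaders, against 190.4, 181 and 269 CPM in parental cells (log2 fold -4.48 ± 0.62 SE, edgeR adjusted p = 4.42e-05; -5.15 without leader replicate 2). It was low in every leader library, and the groups did not overlap. FOSL2 fell by 1.94 on the log2 scale, and SRF itself by 1.40. MYC averaged 612 ± 24 CPM in leaders and 733 ± 136 CPM in parental cells and was not called (edgeR adjusted p = 0.312). IER2, JUND and KLF10 were not called either, but with the offsets they were called higher (log2 fold 1.27, edgeR adjusted p = 5.36e-05; log2 fold 1.02, edgeR adjusted p = 5.27e-06; log2 fold 0.50, edgeR adjusted p = 0.00864), and FOSL2 and SRF stood at -1.12 and -0.41. Among 18 regulators that feed back on MAP kinase signalling, 5 rose (27.8%) and 4 fell (22.2%), near the shares of all genes tested, and 3 rose without leader replicate 1 or without parental replicate 1. The phosphatase gene DUSP1 and the RNA decay factor ZFP36, which are themselves immediate early genes, rose by 3.21 and 2.70, while the ERK targets ETV4, ETV5 and SPRED2 fell by 1.72, 1.36 and 1.34 on the log2 scale (ETV4 at -1.11 with the offsets).

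Heat shock chaperones held both directions. Of 25 members tested, 11 rose (44%) and 6 fell (24%), against 23.2% and 22.4% of all genes tested. The count of 6 was 3 without leader replicate 2 and parental replicate 3. The promoter of HSPA6, a strictly stress-induced member of the HSP70 family, is shown because it holds heat shock elements and its transcript stood far above the parental level in all leader libraries. Capitals mark the element GAANNTTC, which is its own reverse complement.
HSPA6: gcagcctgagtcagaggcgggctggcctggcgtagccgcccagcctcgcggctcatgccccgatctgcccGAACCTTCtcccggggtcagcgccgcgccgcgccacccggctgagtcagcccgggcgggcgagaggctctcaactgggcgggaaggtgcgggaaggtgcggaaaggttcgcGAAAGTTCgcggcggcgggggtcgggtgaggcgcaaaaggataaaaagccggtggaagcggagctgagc
It lies at chr1:161524290-161524539 in GRCh38.p14, plus strand, from RefSeq. The window held 2 such elements, which 5.78% of all promoters had at least once. Of 22 list genes with a promoter entry, 13 held the element in at least 1 promoter, and of the 10 among them that rose, 7 did. The share over all promoters is per promoter and these counts are per gene, with 34 promoters for the 22 genes. The values are thus not on the same measure. HSPA6 had 295, 544 and 449 CPM in leaders, against 1.97, 2.25 and 3.81 CPM in parental cells (log2 fold 7.34 ± 0.46 SE, edgeR adjusted p = 3.63e-08), and no leader library came near the parental ones. Its reads may be shared with a pseudogene of the same family. HSPA1A and HSPA1B, nearly identical inducible HSP70 genes whose reads may be split between them, rose by 2.68 and 3.37, and the HSP40 partner DNAJB1 by 1.85. The small chaperone gene HSPB8 had 26.1, 92.5 and 11.6 CPM in leaders and at most 0.149 CPM in parental libraries. The constitutive HSP90 gene HSP90AB1 and HSP70 gene HSPA8 were not called (log2 folds -0.27 and 0.04, edgeR adjusted p = 0.123 and 0.868), although HSP90AB1 was called lower with the offsets (log2 fold -0.36, edgeR adjusted p = 0.0143). The HSP90 co-chaperones STIP1 and FKBP4 fell by 1.03 and 0.88 on the log2 scale.

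Among genes of the integrated stress and unfolded protein response, which follows stress of the endoplasmic reticulum, 9 of 26 were higher (34.6%) and 7 lower (26.9%), against 23.2% and 22.4% of all genes tested. HERPUD1, which takes part in degrading misfolded proteins, had 469, 359.9 and 486 CPM in leaders, against 66.8, 65.1 and 54.2 CPM in parental cells (log2 fold 2.82 ± 0.21 SE, edgeR adjusted p = 2.14e-07). DDIT4, PPP1R15A and DNAJB9 rose by 2.48, 2.24 and 3.34. Those that fell include known targets of ATF4 in amino acid supply. PHGDH, the first enzyme of serine synthesis, fell to 38.8 ± 19.5 CPM in leaders, against 222 ± 43.2 CPM in parental cells, and TRIB3, ASNS and the cystine transporter gene SLC7A11 fell by 2.30, 1.70 and 1.59 on the log2 scale. ATF4 itself was not called (120.2 ± 16.3 CPM and 100.4 ± 8.92 CPM), but was called higher with the offsets (log2 fold 0.43, edgeR adjusted p = 0.011), and TRIB3 stood at -1.68 there.

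More epithelial genes rose than fell in leaders. Keratins fill the cytoskeleton of epithelial cells, and tight junctions and desmosomes join them. Of 31 junction and keratin genes tested, 17 rose and 2 fell, with a median of 1.16. KRT18 had 6533, 14658 and 6015 CPM in leaders, against 2431, 2123 and 2703 CPM in parental cells (log2 fold 1.91 ± 0.30 SE, edgeR adjusted p = 0.000137), and its partner KRT8 rose by 1.72. Both have many processed pseudogenes, so their levels are uncertain. The duct keratin KRT7 had 531, 594 and 385 CPM and 9.06, 4.72 and 6.92 CPM, at a distance of more than 40 times between the closest libraries. The tight junction genes F11R and CLDN1 rose by 3.08 and 1.26. CDH1, the gene of E-cadherin, had 14.4, 10.7 and 0.872 CPM in leaders and 0 counts in parental cells, at least 313-fold higher with parental cells set at 3 counts over the group, and at least 209-fold without leader replicate 1. The leader libraries spread widely, and none was at 0. TJP3, a scaffold protein of tight junctions, fell by 3.58 (-2.57 with the offsets).

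Of 14 regulators of epithelial identity 10 rose and 1 fell (median 2.90). GATA6, which marks the classical type of pancreatic cancer, had 35.9, 87.7 and 58.9 CPM in leaders, against 1.07, 0.46 and 2.4 CPM in parental cells (log2 fold 5.57 ± 0.78 SE, edgeR adjusted p = 4.54e-05; 6.29 without parental replicate 3). GRHL1, a grainyhead factor of epithelial barriers, had 35.4, 121 and 27.2 CPM and 2.04, 1.94 and 1.15 CPM (log2 fold 5.15 ± 0.66 SE; 4.24 without leader replicate 2). Every leader library lay above every parental one in both genes, with leader replicate 2 the highest. ELF3, an epithelial ETS factor, had 57.4, 465 and 65.9 CPM and 26.6, 22.6 and 33.8 CPM (log2 fold 2.82 ± 0.63 SE, edgeR adjusted p = 0.0019; 1.21 without leader replicate 2). GATA6 and ELF3 stood at 6.31 and 3.72 with the offsets. KLF4, KLF5 and FOXA1 rose by 2.80, 1.85 and 3.13. The one member that fell was CDX2, an intestinal homeobox factor (-1.05), whose call was lost in 9 of 14 alternatives, 5 of them with 1 library left out (log2 folds -1.10 to -0.99). With the offsets CDX2 stood at -0.33 and was not called (edgeR adjusted p = 0.488).

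The mesenchymal list held both directions, with 6 of 15 higher (40%) and 4 lower (26.7%), against 23.2% and 22.4% of all genes tested. FN1, the gene of fibronectin, had 147, 20.1 and 219 CPM in leaders and 0.547, 0.587 and 1.37 CPM in parental cells (log2 fold 7.30 ± 1.21 SE, edgeR adjusted p = 0.00018; 6.68 without leader replicate 3). FN1 stood at 7.95 with the offsets. CD44, a hyaluronan receptor, fell by 1.47 on the log2 scale. VIM was not called (0.20, edgeR adjusted p = 0.264). The epithelial and mesenchymal genes that rose were thus present in the same libraries, which does not say that they were in the same cells.

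S100 genes encode small calcium-binding proteins, several of which are secreted and are raised in pancreatic cancer. All 13 S100 genes tested rose (median over the list 3.75), and the 1 list member not called, S100PBP, encodes a binding partner and no S100 protein. S100A2 had 544, 1526 and 678 CPM in leaders, against 21, 14 and 13.2 CPM in parental cells (log2 fold 5.83 ± 0.48 SE, edgeR adjusted p = 4.68e-07). S100A13, a chaperone of secretion without a signal peptide, had 333, 1326 and 513 CPM and 43.7, 29.7 and 24.7 CPM (log2 fold 4.47 ± 0.50 SE, edgeR adjusted p = 6.86e-06; 3.75 without leader replicate 2). In both, leader replicate 2 was the highest library by more than 2 times, and it was the highest leader in 11 of the 14 members. S100 transcripts are short, with a list median of 747 bases against 2982 over all genes tested. S100A2 and S100A13 stood at 5.17 and 3.60 with the offsets, and under them 11 members were still higher and none lower.

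**Figure D3:**
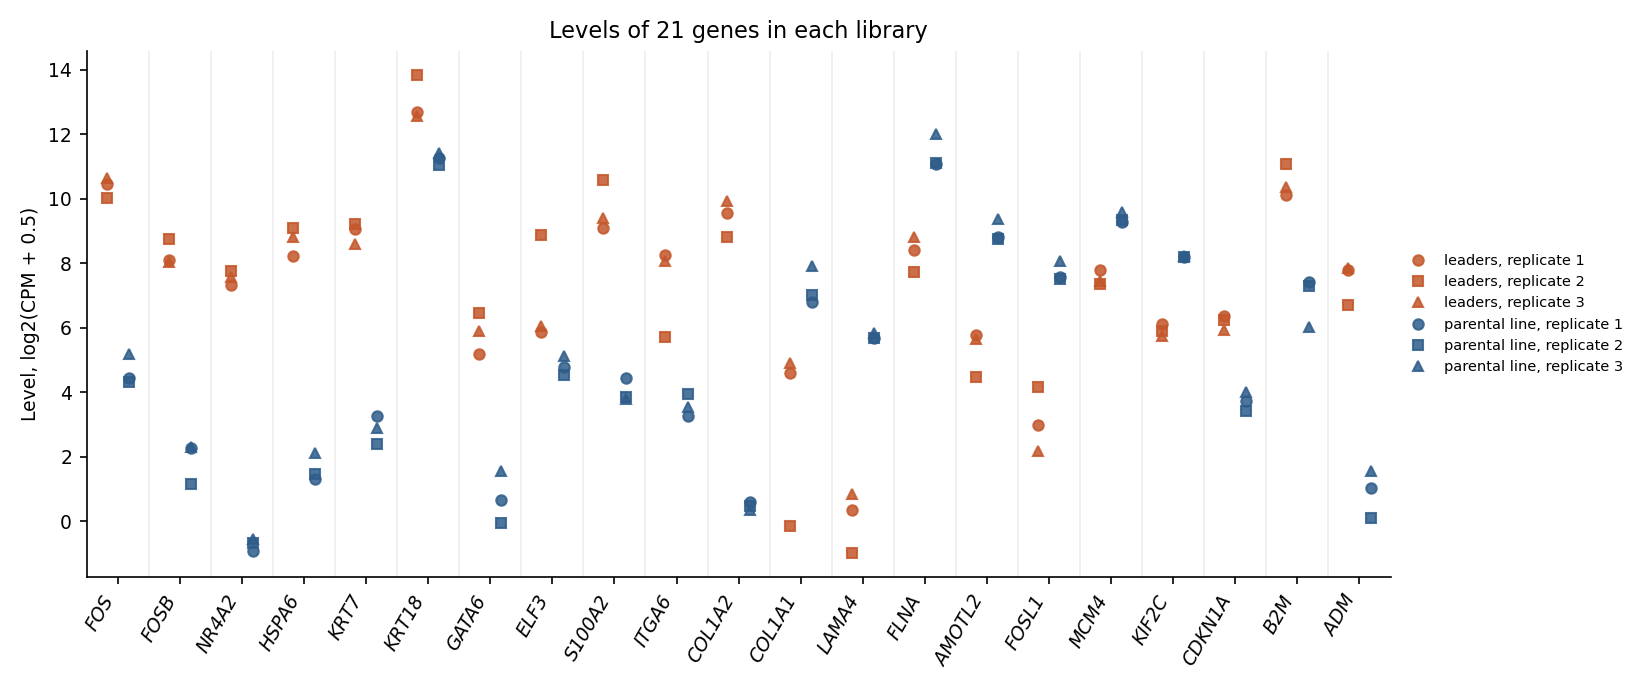
Level of 21 genes described in the text as log2(CPM + 0.5) in each leader library and each parental library, with symbols for replicates. The leader libraries lie above the parental ones from FOS to COL1A2 and from CDKN1A to ADM and below them from COL1A1 to KIF2C, with a wide spread among leaders in ELF3 and COL1A1.

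Genes that act between tumour cells and nerves held both directions. Of 10 neurotrophin and GDNF family genes tested, 2 rose (20%) and 1 fell (10%), against 23.2% and 22.4% of all genes tested. GDNF, a ligand that draws RET-bearing cells along nerves, had 2.21, 8.26 and 2.2 CPM in leaders and 0 counts in parental cells, at least 139-fold higher, and at least 72.5-fold without leader replicate 2. Its receptor gene RET averaged 0.0538 ± 0.064 CPM and 0.0766 ± 0.133 CPM and was not called. NTF4 rose by 2.45, but the call was lost in 6 settings, among them without leader replicate 1 or 3 or any 1 parental library (log2 folds 2.17 to 2.65). BDNF was not called (6.03 ± 7.01 CPM and 3.14 ± 1.41 CPM), and 8 members, among them the NTRK receptors, fell under the count filter.

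Of 12 ERBB receptors and ligands 6 rose (50%) and 1 fell (8.33%), against 23.2% and 22.4% of all genes tested. NRG4, a ligand of ERBB4, had 4.05, 7.22 and 4.28 CPM in leaders, against 0.0746, 0.102 and 0 CPM in parental cells (log2 fold 6.24 ± 1.07 SE, edgeR adjusted p = 0.00024), a low level in all leader libraries but above every parental one. HBEGF and AREG, ligands of the EGF receptor, rose by 1.59 and 1.62, the second by 1.02 without leader replicate 2. With the offsets AREG was not called (log2 fold 0.67, edgeR adjusted p = 0.255), and NRG4 stood at 5.09. ERBB2 averaged 124 ± 25.9 CPM in leaders and 247 ± 65.9 CPM in parental cells and fell, but not with offsets for GC content and length (log2 fold 0.01, edgeR adjusted p = 0.952) or without parental replicate 3 (-0.76). EGFR lay at the threshold (77.2 ± 8.59 CPM and 126 ± 17.8 CPM, log2 fold -0.71, edgeR adjusted p = 0.0516) and was called lower in 5 of 14 alternatives, among them DESeq2 and the replicate block. With DESeq2, or with no filter on low counts, 3 members fell.

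Of the guidance families, 9 of 24 semaphorin, plexin and neuropilin genes fell (37.5%) and 3 rose (12.5%), against 22.4% and 23.2% of all genes tested. The count of 3 was 1 without leader replicate 3 or without parental replicate 1. NRP2, a co-receptor for semaphorins and VEGF, had 18.6, 21.5 and 7.51 CPM in leaders, against 161, 159 and 181 CPM in parental cells (log2 fold -3.40 ± 0.46 SE, edgeR adjusted p = 3.34e-05), with no overlap. SEMA6B and PLXND1 fell by 4.24 and 2.09. The balance of this family depended on the processing, since with the offsets 8 members rose and 7 fell, and NRP2, SEMA6B and PLXND1 stood at -2.77, -3.03 and -0.85. Among slits, netrins and their receptors 3 of 9 rose and 3 fell (33.3% each): NTN4, a secreted netrin, had 11.2, 12.7 and 9.71 CPM in leaders with 1 parental count. The receptors UNC5A and ROBO4 were among the members that fell, both at low levels. Of 20 ephrin and Eph receptor genes 5 rose (25%) and 6 fell (30.0%), near the shares of all genes tested. EPHA2, an Eph receptor often raised in carcinoma, had 76.3, 107 and 55.3 CPM in leaders, against 431, 380.3 and 634 CPM in parental cells (log2 fold -2.60 ± 0.29 SE, edgeR adjusted p = 6.12e-06; -1.65 with the offsets). EPHA3 had 14.9, 0.94 and 15.6 CPM in leaders and 0 counts in parental cells, at least 397-fold higher, and at least 300-fold without leader replicate 3.

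Of 16 neural cell adhesion molecules only 9 passed the count filter. NCAM1, CHL1, CNTN1, CNTN3, CNTN4 and CADM3 had 0 counts in all 6 libraries. Among those tested 5 rose (55.6%) and 1 fell (11.1%), against 23.2% and 22.4% of all genes tested. Their median was 4.75, or 3.80 with members at 0 parental counts set at their bound. NRCAM, ALCAM and CADM2, which rose, averaged 0.301, 0.0863 and 0.0625 CPM in parental cells, so the median rests in part on parental levels near 0. NRCAM, which joins axons and glia, had 7.88, 3.66 and 12.4 CPM in leaders, against 0.348, 0 and 0.555 CPM in parental cells (log2 fold 4.75 ± 0.94 SE, edgeR adjusted p = 0.000771; 5.46 without parental replicate 3). The groups did not overlap. L1CAM, the member best known from invasion along nerves, fell to 32.2 ± 4.15 CPM in leaders, against 94.8 ± 31.3 CPM in parental cells (log2 fold -1.56 ± 0.33 SE), and missed the threshold with offsets for GC content and length (log2 fold -0.48, edgeR adjusted p = 0.0737).

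Integrins bind the laminins of the nerve sheath, and of 25 integrin and laminin genes 8 were higher (32.0%) and 7 lower (28.0%), not far from the 23.2% and 22.4% of all genes tested. The lower count was 4 without leader replicate 2 and parental replicate 3. ITGA6 and ITGB4 encode the chains of the laminin receptor of hemidesmosomes. ITGA6 had 301, 51.6 and 268 CPM in leaders, against 9.15, 14.8 and 11.2 CPM in parental cells (log2 fold 4.14 ± 0.53 SE, edgeR adjusted p = 2.07e-05). ITGB4 had 18.2, 6.58 and 12.1 CPM and 0.224, 0.255 and 1.33 CPM (log2 fold 4.39 ± 0.89 SE, edgeR adjusted p = 0.000867; 5.65 without parental replicate 3). In both, every leader library was above the parental ones and leader replicate 2 was the lowest leader. LAMA4, a laminin chain of vessels and nerves, went the other way, with 0.773, 0 and 1.29 CPM in leaders and 51.1, 51 and 56.5 CPM in parental cells (log2 fold -6.22 ± 0.86 SE, edgeR adjusted p = 4.03e-05; -6.98 without leader replicate 3). The vitronectin receptor gene ITGB5 fell by 1.39. ITGB4 and ITGB5 stood at 5.83 and -0.66 with the offsets.

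Among matrix genes, fibrillar collagens differed in direction within 1 family. COL1A2 had 755, 444 and 959.8 CPM in leaders, against 0.995, 0.868 and 0.777 CPM in parental cells (log2 fold 9.66 ± 0.58 SE, edgeR adjusted p = 3.17e-08), and COL3A1 had 1007, 558 and 1292 CPM and 6.42, 4.54 and 10.2 CPM (log2 fold 7.08 ± 0.55 SE, edgeR adjusted p = 2.67e-07). COL1A1, whose product joins that of COL1A2 in collagen I, had 23.7, 0.396 and 29.6 CPM and 111, 128 and 240.3 CPM (log2 fold -3.15 ± 1.23 SE, edgeR adjusted p = 0.0455). It was lower in every leader library, most of all in replicate 2, but its call was lost in 9 of 14 alternatives, among them without any 1 of the 6 libraries (log2 folds -3.72 to -2.52). COL17A1, COL18A1 and the collagen cross-linking gene LOXL2 fell by 3.83, 3.23 and 1.99. COL1A2, COL3A1, COL17A1, COL18A1 and LOXL2 stood at 10.46, 7.79, -2.87, -1.86 and -1.21 with the offsets. COL1A1 stood at -1.91 there and was not called (edgeR adjusted p = 0.168). In all, 8 of 26 matrix genes rose (30.8%) and 5 fell (19.2%), near the shares of all genes tested.

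Of 27 matrix proteases and inhibitors, 8 rose (29.6%) and 9 fell (33.3%), against 23.2% and 22.4% of all genes tested. The count of 8 was 4 without parental replicate 2, with only the compared groups in the fit or with the offsets, and 5 without parental replicate 1. PLAT, tissue plasminogen activator, had 375, 112 and 384 CPM in leaders and 0.92, 0.357 and 0.222 CPM in parental cells (log2 fold 9.12 ± 0.88 SE, edgeR adjusted p = 1.85e-06; 9.86 without parental replicate 1). PLAU, the other plasminogen activator, fell by 1.63 (-2.35 without leader replicate 2), with a call that was lost in 7 of 14 alternatives, 5 of them with 1 library left out (log2 folds -1.70 to -1.23). MMP3, a stromelysin, had 0 counts in leaders and 2.19, 2.68 and 1.26 CPM in parental cells, at least 50.8-fold lower with leaders set at 3 counts over the group. The cathepsin gene CTSL fell by 1.61, and MMP17, which encodes a membrane-bound metalloprotease, by 4.61 (-3.71 with the offsets).

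Focal adhesions are the contacts through which spread cells pull on their substrate. Genes of the actin cytoskeleton and of focal adhesions fell in 17 of 40 members (42.5%) and rose in 11 (27.5%), against 22.4% and 23.2% of all genes tested. The count of 11 was 7 with no filter on low counts or with only the compared groups, and 5 without leader replicate 2 and parental replicate 3. FLNA, an actin cross-linker, had 340.4, 208 and 451 CPM in leaders, against 2147, 2195 and 4075 CPM in parental cells (log2 fold -3.07 ± 0.34 SE, edgeR adjusted p = 6.56e-06). VCL, the gene of vinculin, had 156, 276 and 154 CPM and 1008, 1050.4 and 1017 CPM (log2 fold -2.39 ± 0.22 SE, edgeR adjusted p = 1.06e-06). No leader library reached any parental one in either. PXN, ACTN1, TLN1 and ZYX, further focal adhesion proteins, fell by 2.59, 2.56, 1.64 and 1.36. FLNA, PXN, ACTN1, TLN1 and ZYX stood at -1.91, -1.77, -1.86, -0.63 and -0.54 with the offsets. Among those that rose, the actin-sequestering thymosin TMSB4X had 9449.8, 12922 and 10590.0 CPM in leaders and 2968, 2140.2 and 1588 CPM in parental cells (log2 fold 2.30 ± 0.24 SE), and RHOB, an immediate early small GTPase, rose by 3.31.

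YAP and TEAD, a coactivator and the transcription factors it acts through, respond to spreading and tension. Of 21 of their targets and partners tested, 13 fell and 2 rose (median -0.97). ASAP1, an Arf GTPase-activating protein at focal adhesions, had 31.2, 21.8 and 24.6 CPM in leaders, against 216, 273 and 264 CPM in parental cells (log2 fold -3.28 ± 0.21 SE, edgeR adjusted p = 4.32e-08). AMOTL2, a junction protein that restrains YAP and is induced by it, had 54.5, 21.4 and 49.9 CPM and 451, 431 and 661 CPM (log2 fold -3.62 ± 0.36 SE, edgeR adjusted p = 2.2e-06; -2.74 with the offsets). CRIM1 and CCN1 fell by 3.23 and 1.04. NT5E, a surface nucleotidase, fell by 5.40 (-4.80 without leader replicate 2 on the log2 scale). CCN2, a widely used target, was low in both groups and not called (2.66 ± 2.18 CPM and 0.591 ± 0.18 CPM), and YAP1 was not called (0.35, edgeR adjusted p = 0.134). With offsets for GC content and length 9 members fell and 3 rose. In the TGF-beta list 4 of 25 rose (16%) and 6 fell (24.0%; 3 members without leader replicate 2 and parental replicate 3), near the shares of all genes tested, and the BMP target ID3 fell by 3.31.

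Cell cycle genes fell and none rose. Of 37 DNA replication genes 26 fell (median -0.91), and of 38 mitosis genes 25 fell (median -1.18). MCM4, a subunit of the replicative helicase, had 222, 161 and 174 CPM in leaders, against 614, 649 and 765 CPM in parental cells (log2 fold -1.87 ± 0.18 SE, edgeR adjusted p = 1.84e-06). KIF2C, a kinesin that corrects chromosome attachment, had 68.6, 58.5 and 53.4 CPM and 290.2, 291 and 296 CPM (log2 fold -2.28 ± 0.19 SE, edgeR adjusted p = 4.66e-07). Both groups were tight and lay apart. MCM2, POLE, AURKA and the proliferation marker MKI67 fell by 2.31, 2.54, 2.03 and 1.54 (MCM2 and POLE at -1.5 and -1.60 with the offsets). PCNA and CDK1 were not called (log2 folds 0.47 and 0.14, edgeR adjusted p = 0.221 and 0.869), although CDK1 was called lower with offsets for GC content and length (log2 fold -0.94, edgeR adjusted p = 0.0159). PCNA stood at -0.36 with the offsets and was not called there (edgeR adjusted p = 0.139). Without leader replicate 2 and parental replicate 3, 21 replication and 19 mitosis genes fell and none rose.

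Inhibitors of the cycle and genes that respond to DNA damage rose in 8 of 19 members (42.1%) and fell in 2 (10.5%), against 23.2% and 22.4% of all genes tested. The count of 2 was 1 with no filter on low counts or with only the compared groups in the fit. It was also 1 without leader replicate 1 or 2 or parental replicate 1 or 3, and 0 without leader replicate 2 and parental replicate 3 together. CDKN1A, the gene of the inhibitor p21, had 81.1, 74.6 and 60.2 CPM in leaders, against 12.6, 10.2 and 15.6 CPM in parental cells (log2 fold 2.49 ± 0.35 SE, edgeR adjusted p = 5.09e-05), without overlap. GADD45G, a stress sensor, had 119, 65.2 and 105 CPM and 0.199, 0.306 and 0.777 CPM (log2 fold 7.88 ± 0.96 SE, edgeR adjusted p = 1.4e-05; 8.54 without parental replicate 3). The antiproliferative genes BTG1 and BTG2 rose by 2.60 and 2.27. MDM2, a ubiquitin ligase gene, was not called (0.44, edgeR adjusted p = 0.306).

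All 13 protein-coding genes of the mitochondrial genome rose, by 1.89 to 3.63 on the log2 scale (median 2.95). MT-ND2, a subunit of complex I, had 998, 1655 and 986 CPM in leaders, against 129, 97.3 and 78.8 CPM in parental cells (log2 fold 3.58 ± 0.31 SE, edgeR adjusted p = 6.53e-07), and leader replicate 2 was the highest leader library for all 13. Nuclear genes of the respiratory chain rose in 21 of 37 (56.8%) and fell in 7 (18.9%), against 23.2% and 22.4% of all genes tested. NDUFA1, COX6C, NDUFA4 and COX7C rose by 3.06, 2.80, 3.11 and 2.27. Those that fell include SDHA (-1.11), CYC1 (-0.88) and UQCRC1 (-0.71). Cytosolic ribosomal proteins, whose transcripts are short, rose in 58 of 64 members (median 1.46) and fell in none. RPS27 had 244, 273 and 284 CPM in leaders and 49.8, 32.4 and 32.3 CPM in parental cells (log2 fold 2.81 ± 0.23 SE, edgeR adjusted p = 4.66e-07). MT-ND2, NDUFA1, COX6C, NDUFA4, COX7C and RPS27 stood at 2.41, 2.23, 1.64, 2.28, 1.07 and 1.28 with the offsets. Reads of ribosomal protein genes may be shared with their many pseudogenes.

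Transcript length and GC content moved with the direction of change over all protein-coding genes. Among transcripts of up to 1 kb, 66.8% were higher in leaders and 1.68% lower (476 genes, median log2 fold change 1.28). Among those of 4 to 8 kb, 15.6% were higher and 32.7% lower (4152 genes, median -0.27). With GC content up to 40%, 28.8% were higher and 4.57% lower, and above 60%, 8.79% and 40.5%. Their part in the results was not tested. In the fit with the offsets, which remove both trends, 7525 genes were called, and 5364 of the 7394 calls kept their direction (72.5%), while 14 were called the opposite way. The median fell to 1.87 for the mitochondrial, 0.27 for the nuclear respiratory chain and 0.95 for the ribosomal protein genes, against 2.95, 0.59 and 1.46 without the offsets.

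**Figure D4:**
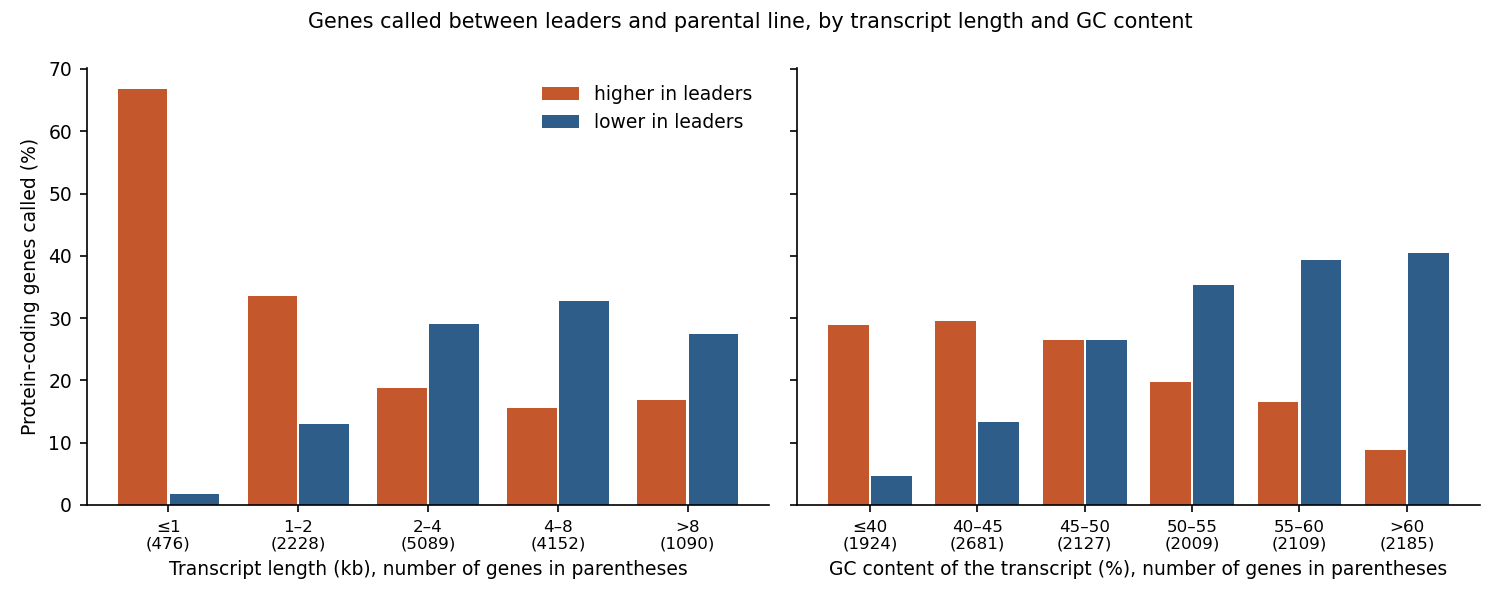
Percent of protein-coding genes called higher or lower in leaders, in bins of transcript length in kb and of GC content in percent, with the number of genes in each bin. The share called higher is 66.8% in the shortest transcripts and 16.9% in the longest, and 28.8% at the lowest GC content and 8.79% at the highest.

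Genes of antigen presentation rose in 14 of 27 members and fell in none (median 1.44), and in the fit with offsets for GC content and length the counts were the same, while 9 members rose without leader replicate 2 and parental replicate 3. B2M, the light chain of class I molecules, had 1108, 2129 and 1323 CPM in leaders, against 169.9, 154 and 64.8 CPM in parental cells (log2 fold 3.55 ± 0.49 SE, edgeR adjusted p = 4.12e-05). The class I heavy chain genes HLA-B and HLA-C rose by 1.88 and 1.91, and the immunoproteasome genes PSMB9 and PSMB10 by 2.45 and 1.74. B2M and PSMB9 stood at 2.52 and 1.63 with the offsets. The HLA genes are alike and very variable, so reads may be split among them. The peptide transporter genes TAP1 and TAP2 were not called (log2 fold changes -0.58 and -0.79), but TAP1 was called lower without leader replicate 2 (-0.85) and TAP2 without parental replicate 2 (-0.97). With the offsets TAP1 stood at 0.041 and was not called.

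Interferon response genes rose in 18 of 38 members and fell in 1, STAT2 (-1.20). GBP2, a guanylate-binding protein, had 6.15, 11.3 and 9.59 CPM in leaders and 1 count in parental cells, and BST2, the antiviral tetherin, had 168, 115 and 143 CPM and 17.5, 13 and 15.6 CPM (log2 fold 3.21 ± 0.50 SE, edgeR adjusted p = 0.000103). OAS1, IFITM3 and IRF1 rose by 2.68, 1.86 and 1.62 (IFITM3 by 1.2 with the offsets). The most commonly used members were not called: ISG15 had 51.5 ± 14.2 CPM in leaders and 55.7 ± 15 CPM in parental cells, and IFIT1 and MX1 also missed the threshold (edgeR adjusted p = 0.155 and 0.969). With only the compared groups in the fit, IFIT1 was called lower (-1.05) and 4 members fell.

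Complement genes rose in 12 of 15 members and fell in none (median 1.72). The members include both activating enzymes and inhibitors that shield cells. CLU, a secreted chaperone that blocks the final pore, had 1963, 339 and 933 CPM and 155, 139.8 and 190.5 CPM (log2 fold 2.74 ± 0.45 SE; 1.97 without leader replicate 1). The membrane inhibitor genes CD46 and CD59 rose by 1.70 (1.06 with the offsets) and 0.97, and the enzyme gene C1S by 1.74. C3 was not called (3.07 ± 2.48 CPM and 1.66 ± 1.07 CPM). Among 27 cytokine and NF-kB genes 8 rose (29.6%) and 6 fell (22.2%), near the shares of all genes tested, and the second count was 2 without leader replicate 1, leader replicate 3 or parental replicate 3. NFKBIZ, an inducible regulator, rose to 36.6 ± 13.4 CPM in leaders, against 4.74 ± 0.974 CPM in parental cells. The subunit gene NFKB1 fell by 0.96, and was not called with the offsets (log2 fold -0.55, edgeR adjusted p = 0.0536). With offsets for GC content and length 9 members rose and none fell.

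In metabolism, several genes of cholesterol synthesis rose. HMGCS1, an early enzyme of the mevalonate pathway, had 93.6, 101 and 76.7 CPM in leaders, against 14.9, 23.9 and 14.4 CPM in parental cells (log2 fold 2.35 ± 0.30 SE, edgeR adjusted p = 1.84e-05). IDI1, MSMO1 and SC5D rose by 2.59, 2.14 and 2.45. ACLY, which supplies carbon for fatty acids, and the regulator SREBF1 fell by 1.26 and 1.50. MSMO1, SC5D and SREBF1 stood at 1.19, 1.70 and -0.35 with the offsets. In all, 14 of 30 members rose (46.7%) and 7 fell (23.3%), against 23.2% and 22.4% of all genes tested. With the offsets 3 members fell. Of 35 hypoxia and glycolysis genes 10 rose and 10 fell (28.6% each), near the shares of all genes tested. ADM, a vasodilator peptide gene induced by low oxygen, had 218, 103 and 231 CPM in leaders and 1.54, 0.562 and 2.4 CPM in parental cells (log2 fold 6.96 ± 0.53 SE, edgeR adjusted p = 2.07e-07). The glucose transporter genes SLC2A1 and SLC2A3 rose by 1.45 (2.09 with the offsets) and 2.02, while the glycolytic enzymes HK1, PKM, PFKM and ENO1 fell by 1.80, 1.30, 1.40 and 0.76. VEGFA was not called (-0.21, edgeR adjusted p = 0.597). Of 33 antioxidant genes 10 rose and 10 fell (30.3% each), also near them, and 5 rose with the offsets. The peroxiredoxin PRDX4 and the thioredoxin TXN rose by 2.08 and 1.68, and TXNRD1, which recharges thioredoxin, fell to 216 ± 102 CPM in leaders, against 950.5 ± 124 CPM in parental cells. PRDX4 and TXN stood at 1.33 and 0.42 with the offsets.

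**Figure D5:**
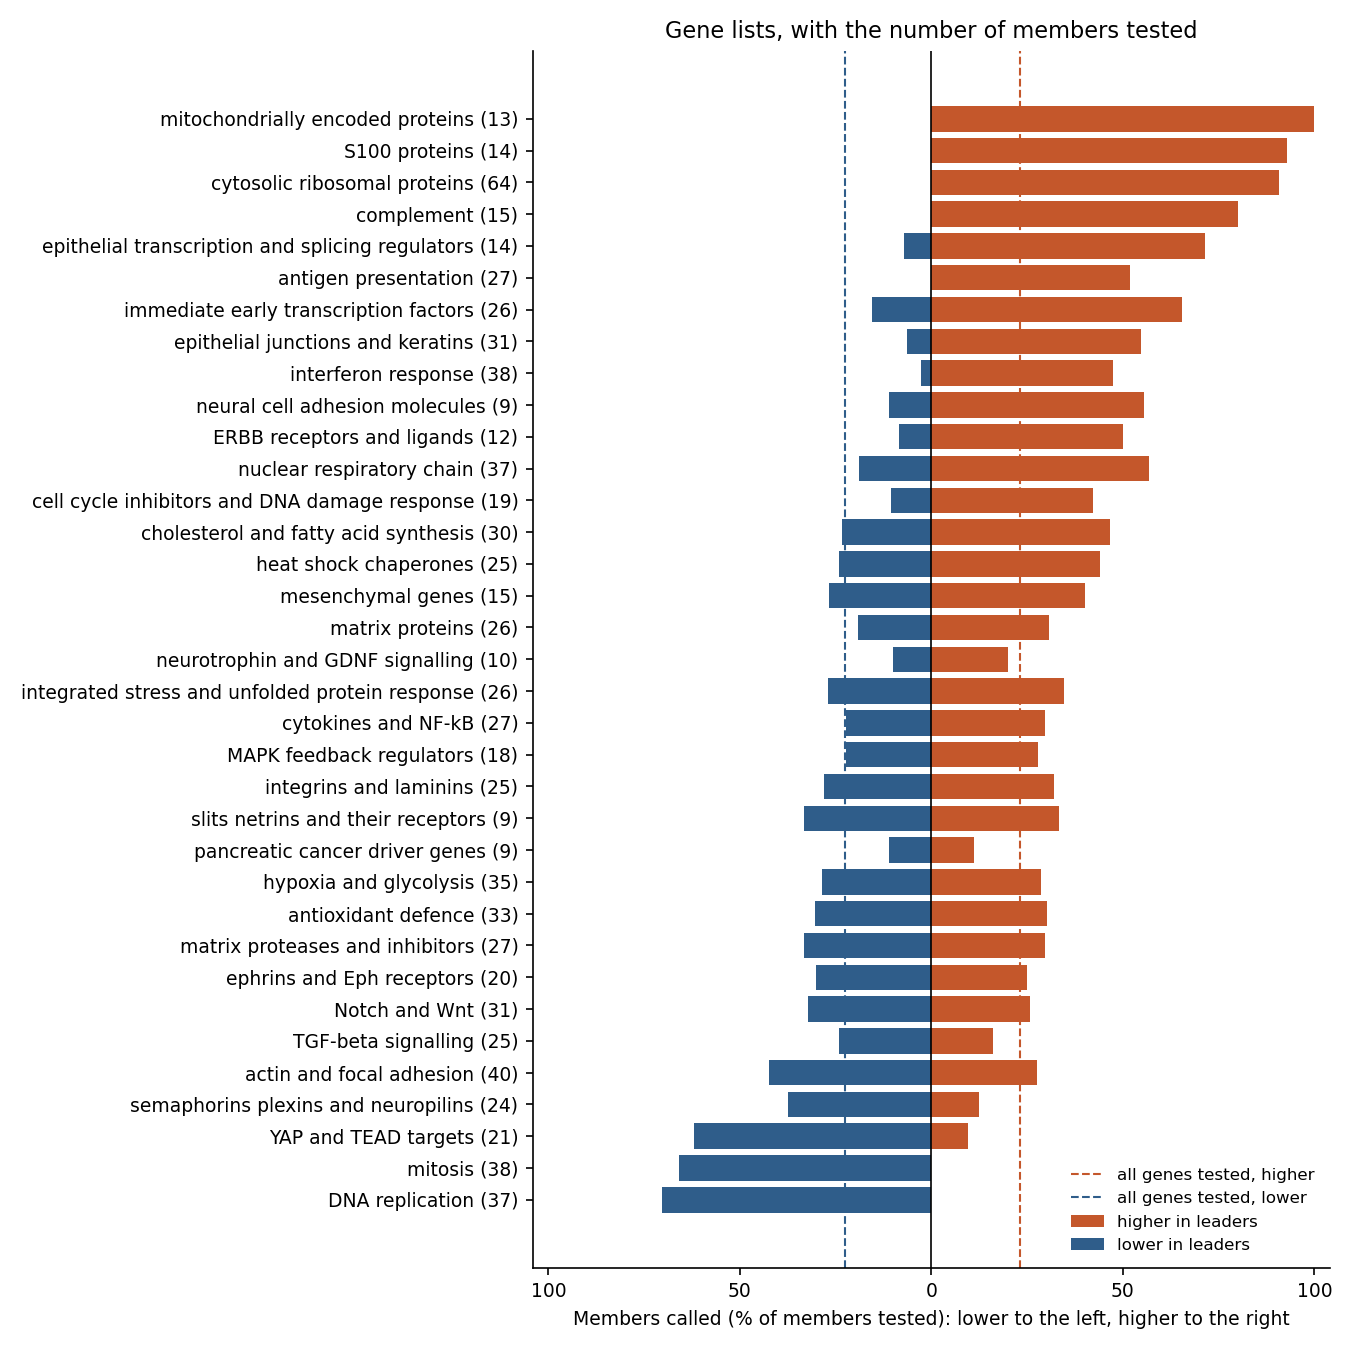
Percent of tested members called lower (to the left) or higher (to the right) in leaders for each pathway list, with the number tested in parentheses and dashed lines at the shares of all genes tested (22.4% and 23.2%). Mitochondrially encoded, S100, ribosomal protein and complement genes lie at the higher end, and DNA replication, mitosis and YAP target genes at the lower end.

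Of 31 Notch and Wnt genes 8 were higher (25.8%) and 10 lower (32.3%; 6 genes with the offsets), near the shares of all genes tested. HES1, a target of Notch, had 155, 191 and 171 CPM in leaders, against 12.8, 9.73 and 15.7 CPM in parental cells (log2 fold 3.76 ± 0.36 SE, edgeR adjusted p = 1.74e-06), and the receptor gene NOTCH2 fell by 1.52. The Wnt ligand gene WNT4 had 89.3, 675 and 93.7 CPM and 11.3, 9.34 and 11.5 CPM (log2 fold 4.74 ± 0.77 SE; 3.15 without leader replicate 2), highest in leader replicate 2. The inhibitor DKK1 rose by 2.63. WNT4 and DKK1 stood at 5.51 and 1.88 with the offsets.

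Markers of other cells that nerve tissue could hold were read in the same libraries. The genes counted are human ones and the host species is unknown, so reads from host cells may be counted only in part. A low sum or 0 counts therefore cannot show that such cells were absent, and no sum measures their amount. Summed over 12 Schwann cell markers, the level was 34.2 to 68.5 CPM in leaders and 242 to 291 CPM in parental cells. MBP, a myelin protein gene that is not specific to Schwann cells, made up most of the parental sums. It had 2.58, 37.9 and 4.07 CPM in leaders and 199.5, 207 and 235 CPM in parental cells, and fell by 3.86. MBP stood at -5.95 without leader replicate 2 and at -3.20 with the offsets, and was not called with DESeq2. CDH19 rose, with 1.73, 0 and 2.2 CPM in leaders and 0 counts in parental cells, at least 49.6-fold higher (at least 32.8-fold without leader replicate 3), and 4 of the 6 members tested were not called. Summed over 10 fibroblast markers, it was 1009 to 2314 CPM in leaders and 122 to 255 CPM in parental cells, and of 8 members tested 5 rose and 1 fell. COL1A2 and COL3A1 made up most of the leader sums, and COL1A1, the member that fell, most of the parental ones (the values stand with the matrix genes above). PDGFRA averaged 10.0 ± 7.51 CPM in leaders and 0.112 ± 0.14 CPM in parental cells, LUM 3.97 ± 2.34 CPM and 0.118 ± 0.102 CPM (log2 fold 4.94, or 4.16 with the offsets), and DCN 4.09 ± 3.08 CPM and 0.187 ± 0.324 CPM, each with the lowest leader level in replicate 2, while FAP and THY1 did not pass the filter on low counts. Endothelial markers summed to 5.52 to 14.5 CPM and 3.29 to 6.39 CPM, with none of 5 tested called. Leukocyte markers summed to 3.02 to 7.03 CPM and 3.06 to 6.36 CPM. Of 5 tested 1 rose and 2 fell: PTPRC rose (0.92, 3.41 and 2.37 CPM in leaders and 0 counts in parental cells), while FCER1G and CD68 fell (log2 folds -3.09 and -2.46, edgeR adjusted p = 0.00214 and 0.00587; FCER1G at -4.31 with the offsets), both at low levels. CD3E and MS4A1 had 0 counts throughout. Erythroid markers summed to 0.405 to 0.940 CPM and 0.423 to 1.55 CPM, and muscle and adipose markers to 0.198 to 1.12 CPM and 1.59 to 2.59 CPM. The part of any such cells in the higher collagen, complement and interferon genes was not tested.

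Where leaders differ among themselves, the differences ran by gene group. Leader replicate 2 was the highest leader library for 39.3% of all genes tested and the lowest for 38.2%. It was the highest for 19 of 31 junction and keratin genes, 29 of 40 actin and focal adhesion genes and 21 of 30 sterol and fatty acid genes. It was the lowest for 7 of 8 fibroblast markers, 16 of 20 ephrin genes, 7 of 9 neural adhesion molecules and 25 of 35 hypoxia and glycolysis genes. Leader replicate 1 was the highest for 32 of 37 DNA replication and 28 of 38 mitosis genes, against 30.7% of all genes tested. These are counts over 1 set of libraries and were not tested.

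Laggers and passage 4 leaders place the passage 1 leaders within the series. The comparisons below share the passage 1 leader libraries with the one above, so their values are given side by side and not as independent support. Leaders and laggers of passage 1 differed in 10 of 16187 genes (0.0618%, with 0.0185% higher and 0.0432% lower in leaders, by edgeR), 8 of which also differed between leaders and parental cells. There were 0 calls without leader replicate 1, leader replicate 3 or lagger replicate 2, or with only these groups in the edgeR fit (1882, 1984, 2210 and 1197 genes at an unadjusted p under 0.05), and 3 with the replicate block, while DESeq2 called 372. The stress genes HSPA6 and BAG3 were lower in leaders than in laggers (log2 fold changes -2.10 and -1.64, edgeR adjusted p = 0.0395 and 0.011) although both were higher in leaders than in parental cells (7.34 and 0.86). AMOTL2 and RUNX1 were lower in leaders than in either group (-2.08 and -1.36 against laggers, edgeR adjusted p = 0.0395 and 0.0316). Against laggers, leaders were also higher in AGR2, which encodes a disulfide isomerase of secretory epithelia (5.90, edgeR adjusted p = 0.0395). The immediate early genes FOS, FOSB and NR4A2 were not called between leaders and laggers (-0.12, -0.39 and -0.97, edgeR adjusted p = 0.832, 0.563 and 0.109), nor was KRT7 (0.09).

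Passage 4 leaders differed from passage 1 leaders in 3237 genes (20% of those tested), 1752 higher (10.8%) and 1485 lower (9.17%). MEST was 374 ± 163 CPM in passage 4 leaders, against 13287 ± 960.4 CPM in passage 1 leaders (-5.15, edgeR adjusted p = 1.73e-07). HMGA1, a chromatin architecture protein, was 1538 ± 358 CPM in passage 4 leaders, against 109, 103 and 106 CPM in those of passage 1 (3.86, edgeR adjusted p = 4.19e-07), and RUNX1 and SMURF1 were also higher at passage 4 (3.34 and 2.87). TGM2, FOSL1 and NT5E, which were low in passage 1 leaders, were higher at passage 4 by 4.54, 3.77 and 5.47. The cell cycle genes MCM4 and KIF2C were higher at passage 4 by 0.77 and 1.40. FOS, EGR1 and KRT18 were not called between the passages (0.22, 0.34 and -0.38). Without passage 4 replicate 3, 1512 genes were called between the passages.

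Gene classes and chromosomes differed in the balance of the calls. Long intergenic non-coding RNAs were higher in leaders in 35.8% of 617 genes and lower in 6.32%, processed pseudogenes in 30.7% and 4.89% of 757, and protein-coding genes in 21.9% and 26.3%. Antisense genes (27.8% and 4.76% of 798) cannot be told apart from their sense partners, since the kit does not mark strand. By chromosome, chromosome 20 had 10.9% of 357 protein-coding genes higher and 44.0% lower, and chromosome 22 had 10.6% and 42.8% of 320. Chromosome 4 had 30.4% and 12.9% of 458. Median GC content was 53.4% and 57.3% for chromosomes 20 and 22 and 42.6% for chromosome 4. What part of these shares goes with GC content or with copy number was not tested.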

How the data were processed

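RNA from each library was amplified from 2 ng with an oligo-dT, template-switching kit that does not mark strand, per the labels' protocols. The authors deposited whole-number counts of reads per gene. Cutadapt 1.6, STAR 2.5.0a, HTSeq 0.5.3 and DESeq 1.22.1 are named in the submitters' processing notes, without roles. For the counts, genome build and annotation were not given in the sources used here. Entries that name no gene (such as multiply aligned reads) held 27.6% to 45.4% of the 6 libraries and were left out.

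Symbols, lengths and GC content came from GENCODE 29 (51488 of 57445 gene identifiers matched a symbol), and promoters from RefSeq. Counts of all 18 libraries were filtered with filterByExpr, scaled by TMM and tested by edgeR 4.0.16 (R 4.3.3, quasi-likelihood, Benjamini-Hochberg over 16187 genes). The residual degrees of freedom were 12. Intervals and floors cover counting error only. The members and lists were chosen with earlier results of these data known. Leaving out mitochondrial, ribosomal protein and clone-named genes, the rule named the 8 largest CPM differences and the 6 smallest adjusted p-values in each direction. It also named up to 4 called members of each list by adjusted p, the genes also called against laggers, and the 6 genes with the smallest adjusted p among those called the opposite way at passage 4. Other list members were chosen after their values were seen. The fit was tested on simulated data. Alternatives were median-of-ratios factors, no filter, DESeq2 1.42.0, only the compared groups, a replicate block, no mitochondrial genes and each library left out. After seeing the data, offsets for GC content and length and the joint removal of 2 libraries were added. Same-numbered replicates were not paired. Some genes are not reported here.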

Additional observations from a re-analysis of the deposited data

Results flagged for a closer look

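Between passage 1 leaders and passage 1 laggers, 8 genes that also differed between leaders and parental cells were called by edgeR, and each is a difference between groups of the same passage. On the log2 scale, leaders over laggers, AGR2 was at 5.90, GPX8 at 1.39, AMOTL2 at -2.08, BAG3 at -1.64, HSPA6 at -2.10, PARP3 at -1.15, RUNX1 at -1.36 and TRIM26 at -1.20. None of these comparisons has an estimate of the spread between animals, because the labels do not give any.

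Between passage 4 and passage 1 leaders, 6 genes are given that had the smallest adjusted p-values by edgeR among those called the opposite way from leaders over parental cells, other genes having larger differences. They were RUNX1 at 3.34, HMGA1 at 3.86, SMURF1 at 2.87, MEST at -5.15, MESTP3 at -5.26 and MXRA7 at -2.07 (log2, passage 4 over passage 1). MEST and MESTP3 may share reads.

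Outside the gene counts, reads aligned to more than 1 place made up a mean of 24.6% of entries in leader libraries, against 15.1% in parental ones.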

How the results depend on the processing

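The number of genes called between leaders and parental cells stayed within 1.5 times of 7394 under all alternatives run. It was 7408 with median-of-ratios factors, 7171 with no filter on low counts, 7936 with DESeq2, 6704 with only the 2 groups in the fit, 7363 without mitochondrial genes and 5971 to 6903 with 1 library left out. With the replicate block it was 7123, and the block is an added check only, because same-numbered libraries did not deviate together (correlations 0.02, -0.08 and -0.00). The comparison of leaders with laggers was the least stable. Its 10 calls became 257 with no filter on low counts, 372 with DESeq2, 108 with offsets for GC content and length, 3 with the replicate block and 0 with only these groups in the fit, where 1197 genes had an unadjusted p under 0.05. With 1 library left out it was 0 to 52. The 3237 genes called between passage 4 and passage 1 leaders became 1512 to 2821 with 1 library left out. The cause was not tested. Of the called genes named in the text, ERBB2 changed its sign (log2 fold change 0.013 with offsets for GC content and length), and all other sign changes were in genes not called between leaders and parental cells. With the same offsets these were CDK1 (-0.94, then called), PCNA (-0.36), HSPA8 (-0.20), S100PBP (-0.029), TAP1 (0.041), RET (0.16), VEGFA (0.17) and MX1 (0.31). They were HSPA8 and S100PBP with no filter (-0.0092 and -0.012) and MX1 with the replicate block (0.22). With 1 library left out, or with leader replicate 2 and parental replicate 3 left out together, the range was -0.55 to 1.98 for BDNF, -0.25 to 0.64 for CDK1, -0.11 to 0.14 for HSPA8, -0.36 to 0.12 for ISG15, -0.64 to 0.61 for MX1, -1.74 to 3.53 for RET, -0.21 to 0.24 for S100PBP and -0.33 to 0.10 for VEGFA. Of the genes named in the text or by rule, the settings with the most lost calls were the offsets (15) and parental replicate 3 left out (9). DESeq2 lost 0 of the genes to which it gave an adjusted p. Genes without one are not in that count, and DESeq2 called no Schwann cell marker lower, MBP included. With depths of 21474819 to 39373248 counts, genes at 0 parental counts allow only lower bounds of the difference.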
